A study of Triticum aestivum with 12 samples.

Results

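The evening genes of the circadian clock examined here were GIGANTEA (GI), EARLY FLOWERING 3 (ELF3) and LUX ARRHYTHMO (LUX). Hexaploid bread wheat carries each as a triad of homoeologues, named here by the sub-genome (A, B or D), which gave 9 genes of the 107891 in the deposited transcriptome data. They were taken by their identifiers whatever their values: TraesCS3A02G116300 (GI-A), TraesCS3B02G135400 (GI-B) and TraesCS3D02G118200 (GI-D), TraesCS1A02G443200 (ELF3-A), TraesCS1B02G477400 (ELF3-B) and TraesCS1D02G451200 (ELF3-D), and TraesCS3A02G526600 (LUX-A), TraesCS3B02G594300 (LUX-B) and TraesCS3D02G531900 (LUX-D). The deposited tables hold identifiers only, so the names were given to the identifiers beforehand and could not be checked against an annotation.

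The plant circadian clock is a loop of transcription factors that switch each other on and off at set times of day. In Arabidopsis, ELF3 is a scaffold protein that joins LUX, a MYB-type DNA-binding protein, and the small protein ELF4 in the evening complex, which represses growth and clock genes through the night. GI, a large plant-specific protein whose transcript peaks late in the day in Arabidopsis, links the clock to the photoperiod pathway that induces flowering. In barley and einkorn wheat, loss of ELF3 or LUX leads to early flowering.

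RNA-seq libraries came from leaf, axillary bud and shoot apex of the winter wheat cultivar AK58, with 2 libraries in each of 6 groups. Non-vernalized plants were grown for 2 weeks under 16 h of light, with day and night temperatures of 22 and 19 °C. Vernalized plants were grown in the same way, then spent 1 month at 4 °C under 16 h of light and 1 day back in the greenhouse, so they were also older, and no group of that age was kept out of the cold. Leaf was harvested directly, whereas bud and apex were dissected under a microscope. All tissues were taken in the first hours after the lights came on, and no time course was made, so a change in the level of a clock gene and a shift of its daily rhythm cannot be told apart. The study describes the libraries as biological replicates, but the number of plants behind each is not given in the sources used here.

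Expression was given as TPM, a measure of transcript abundance that corrects for transcript length and sums to the same total in every library. The reads behind a value are unknown, and a lower level can stand for fewer cells of a type or for less RNA per cell. The number of genes above 1 TPM in a library ranged from 34465 to 50836. The 10 highest genes held 12.8% and 14.0% of all TPM in the vernalized leaf libraries against 11.8% and 7.13% in leaf, and the median tested gene had a log2 fold change of -0.90 after vernalization in leaf, against 0.29 in bud and -0.063 in apex. Each response is therefore also given relative to that median or after median-of-ratios scaling, which sets the typical gene of every library to the same level and brought these medians to -0.022, 0.053 and 0. The labelled tissues could not be checked against marker genes, because no table pairing the identifiers with marker names was at hand.

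LUX-A and LUX-D rose in leaf after vernalization. LUX-D was at 1.86 and 1.49 TPM before vernalization, and at 16.7 and 14.0 TPM after it. Both vernalized libraries lay far above both others, and LUX-D rose 6.12-fold on the scale of TPM + 1. This was a log2 fold change of 2.61 ± 0.24 between 2 and 2 libraries (± SE, limma, adjusted p = 1.98e-06). Each SE of these fits rests on a spread estimated over all 12 libraries. LUX-A was at 5.31 and 4.35 TPM before and at 10.96 and 13.2 TPM after vernalization. Its libraries did not overlap either, and LUX-A rose 2.24-fold, a log2 fold change of 1.17 ± 0.21 (limma, adjusted p = 0.000311). Both LUX genes that could be tested rose, where 12.3% of the 60326 tested genes did, and relative to the median gene LUX-A and LUX-D stood 2.06 and 3.51 higher on the log2 scale. After median-of-ratios scaling their log2 fold changes were 2.48 and 3.78, and 23.1% of all genes rose.

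LUX-B peaked at a lower level than any of the other genes, although it was above LUX-A in 2 of 12 libraries, both from bud. It was at 0.140 and 0.0729 TPM in leaf and at 0.387 and 1.04 TPM in vernalized leaf, and its highest group mean, 0.915 TPM, kept it below the filter of 1 TPM in at least 1 group, so 8 of the 9 genes were tested. Its vernalized leaf libraries also lay above both others, as did those of 19.8% of all tested genes. Without the filter its log2 fold change in leaf was 0.60 ± 0.21 (limma, adjusted p = 0.0325), short of the fold change of 2 that a call required. After median-of-ratios scaling LUX-B passed the filter and was called higher, at 1.04 ± 0.23 (limma, adjusted p = 0.00317).

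**Figure D1:**
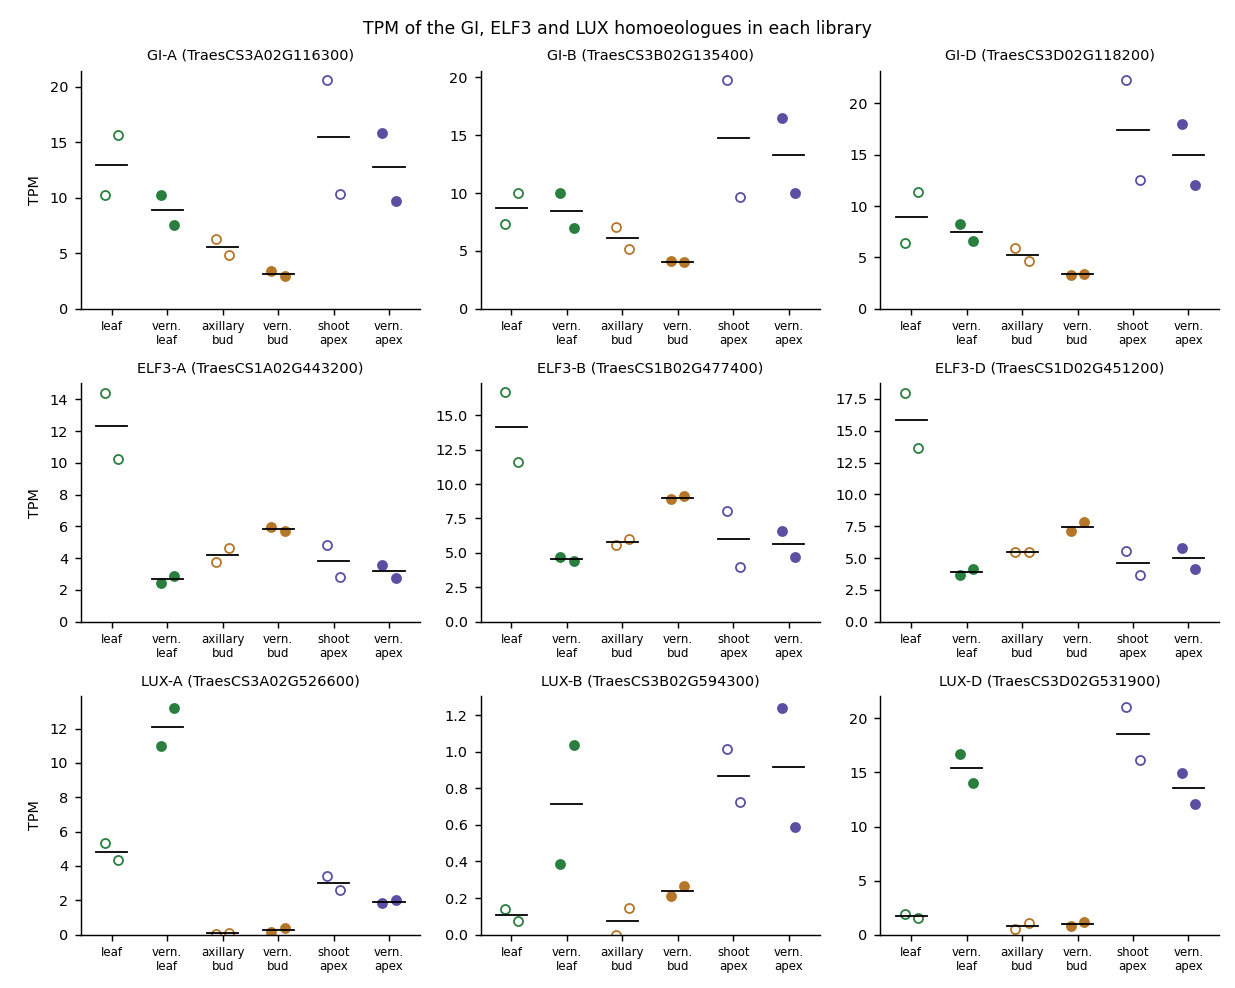
TPM of each homoeologue of GI, ELF3 and LUX in the 12 libraries. Each point is 1 library, open before and filled after vernalization, the bar is the mean of 2 libraries, and every panel has its own TPM axis starting at 0. LUX-A and LUX-D were higher and the 3 ELF3 genes lower in both vernalized leaf libraries than in both leaf libraries.

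ELF3 was lower in vernalized leaf with the deposited TPM, and all 3 homoeologues moved together. ELF3-A was at 14.4 and 10.2 TPM in leaf and at 2.45 and 2.87 TPM in vernalized leaf. ELF3-B was at 16.7 and 11.6 TPM before and at 4.72 and 4.44 TPM after vernalization. ELF3-D was at 18.0 and 13.6 TPM before and at 3.63 and 4.11 TPM after vernalization. The libraries of the 2 leaf groups did not overlap for any ELF3 gene, a pattern found in the lower direction for 67.8% of all tested genes. On the scale of TPM + 1, ELF3-A fell 3.60-fold (log2 fold change -1.85 ± 0.26; limma, adjusted p = 4.6e-05), ELF3-B fell 2.68-fold (-1.42 ± 0.29, adjusted p = 0.000792) and ELF3-D fell 3.43-fold (-1.78 ± 0.24, adjusted p = 4.07e-05).

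Such a fall was common in leaf with the deposited TPM, where 46.2% of all tested genes were called lower and 12.3% higher. The study, which called genes from read counts, reported more induced than repressed genes in leaf. Relative to the median gene the log2 changes were -0.95 for ELF3-A, -0.53 for ELF3-B and -0.88 for ELF3-D, and 21.5% to 33.2% of all tested genes had a lower fold change than these. After median-of-ratios scaling the log2 fold changes were -0.58, -0.08 and -0.45, still negative, and none of the 3 was called (limma, adjusted p = 0.0381, 0.755 and 0.0615). Of all genes, 17.0% were then called lower and 23.1% higher.

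GI was not called in leaf, and its direction turned with the scaling. GI-A was at 10.3 and 15.7 TPM in leaf and at 10.2 and 7.53 TPM in vernalized leaf. GI-B was at 7.34 and 10.04 TPM before and at 9.99 and 6.99 TPM after, and GI-D at 6.45 and 11.4 TPM before and 8.27 and 6.63 TPM after. The groups overlapped for GI-B and GI-D and were barely apart for GI-A. The log2 fold changes were -0.48 ± 0.34, -0.03 ± 0.34 and -0.19 ± 0.32 (limma, adjusted p = 0.215, 0.947 and 0.609) with the deposited TPM, but 0.90 ± 0.18, 1.32 ± 0.18 and 1.16 ± 0.18 after median-of-ratios scaling, where GI-B and GI-D were called higher and GI-A missed the fold change of 2. Relative to the median gene the deposited values were higher by 0.41, 0.86 and 0.70 on the log2 scale.

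Across the 8 tested genes, 5 were called in leaf with the deposited TPM, 2 higher and 3 lower, against 58.5% of all tested genes called in either direction. After median-of-ratios scaling the calls were also 5, of 9 genes, but all were higher, against 40.1% of all genes called. The calls of LUX-A and LUX-D were the ones made on both scales. Every one of the 5 calls on the deposited TPM held when any single library was left out.

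**Figure D2:**
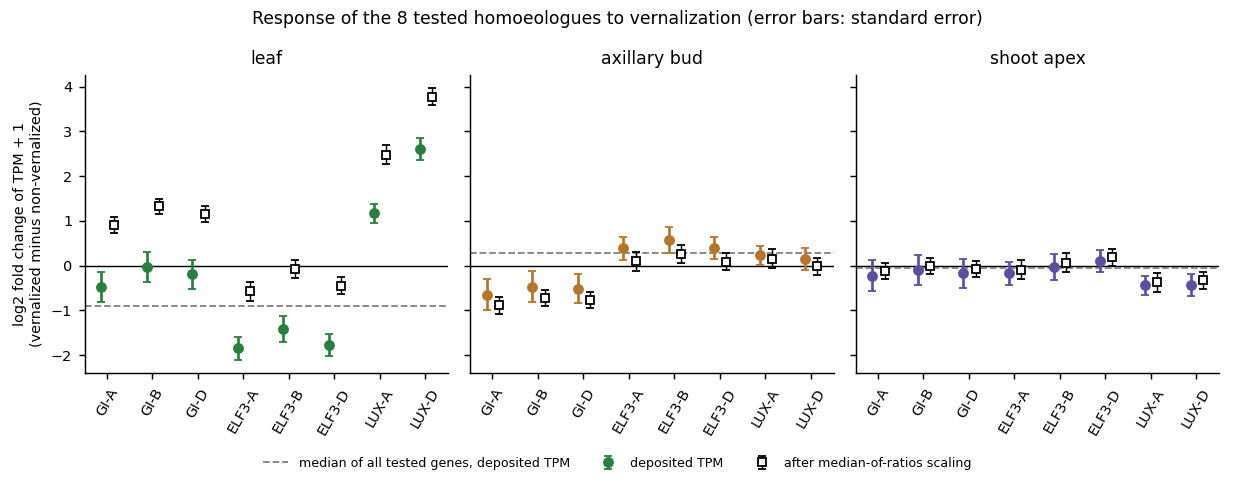
Log2 fold change of TPM + 1 after vernalization for the 8 tested homoeologues in each tissue, with error bars of 1 standard error and the median of all tested genes as a dashed line. In leaf, LUX-A and LUX-D were positive and ELF3 negative on both scales, whereas GI lay at -0.48 to -0.03 with the deposited TPM and at 0.90 to 1.32 after median-of-ratios scaling.

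The rank of a gene within its library does not depend on any scaling of that library. LUX-D was above 64.6% and 60.4% of all genes in the leaf libraries and above 94.6% and 94.7% in the vernalized leaf libraries. LUX-A moved from 77.3% and 72.8% to 92.2% and 94.4%, and LUX-B from 44.1% and 40.2% to 55.8% and 68.5%. All LUX genes thus stood higher among the genes of the vernalized leaf. ELF3-A moved the other way, from 89.2% and 84.1% to 76.7% and 81.3%, and ELF3-D from 91.3% and 87.6% to 81.8% and 85.3%. ELF3-B, at 90.6% and 85.7% before and 84.7% and 86.2% after, overlapped between the groups. The 3 GI genes, which had not gained in TPM, lay at 79.8% to 89.2% in leaf and at 89.9% to 91.7% in vernalized leaf, so each stood higher among the genes of its library after vernalization. A rank also moves when other genes of the library rise or fall. Genes above 1 TPM numbered 45053 and 46876 in the leaf libraries and 37248 and 34465 in the vernalized leaf libraries. The share of all genes with such a shift in rank was not computed, and these ranks are given without a test.

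**Figure D3:**
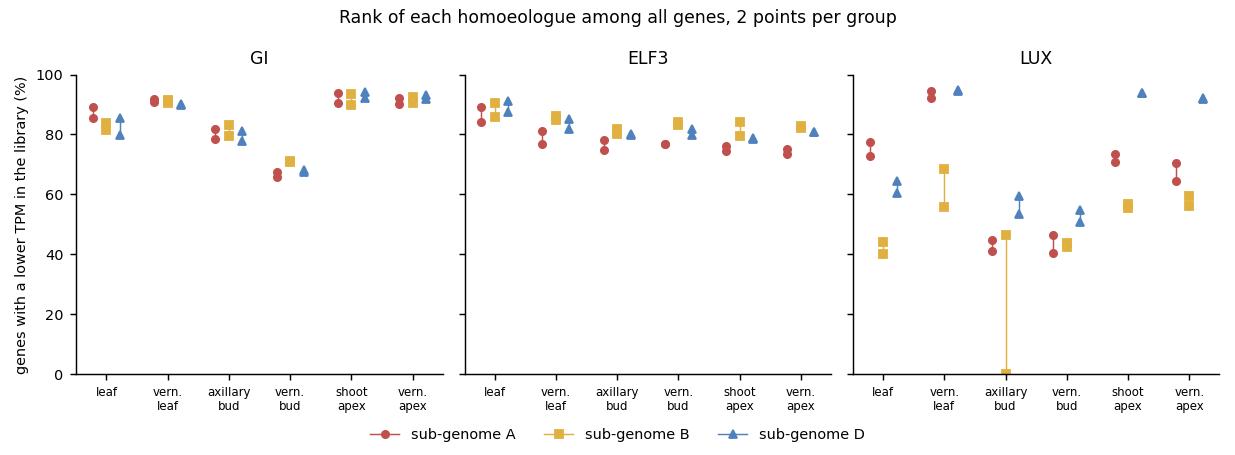
Rank of each homoeologue in its library, as the percentage of all 107891 genes with a lower TPM, with 2 points per group joined by a line. In leaf, LUX-D went from 60.4% to 64.6% before to 94.6% to 94.7% after vernalization, and the point at 0 is LUX-B in the axillary bud library where it was listed at 0.

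In axillary bud none of the 8 tested genes was called after vernalization, where 14.8% of all tested genes were (limma; 0 of the 8 had an unadjusted p under 0.05). None was called after median-of-ratios scaling either, where 11.5% of all genes were and 3 of the 9 had an unadjusted p under 0.05. These p-values rest on a spread shared over the 6 groups. In a fit of bud alone the adjusted p was 0.0444 for GI-A, 0.0182 for ELF3-B and 0.0437 for ELF3-D (limma). It was 0.0599 to 0.0939 for GI-B, GI-D and ELF3-A, and all of these changes stayed below a fold change of 2. GI-A was at 6.28 and 4.80 TPM before and at 3.36 and 2.93 TPM after vernalization. GI-B was at 7.05 and 5.16 TPM before and 4.11 and 4.04 TPM after, and GI-D at 5.95 and 4.61 TPM before and 3.34 and 3.41 TPM after. All GI genes were lower in both vernalized bud libraries than in both others, as were 19.6% of all tested genes. Their log2 fold changes were -0.65 ± 0.34, -0.47 ± 0.34 and -0.51 ± 0.32 (limma, adjusted p = 0.182, 0.332 and 0.263). After median-of-ratios scaling they were -0.89, -0.73 and -0.76 with adjusted p of 0.00591, 0.0139 and 0.0123, each below a fold change of 2. By rank GI lay above 77.9% to 83.3% of all genes in bud and above 66.0% to 71.0% in vernalized bud. Genes above 1 TPM numbered 44920 and 44523 in the bud libraries and 50836 and 50485 in the vernalized bud libraries.

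The ELF3 genes lay on the other side of zero in bud. ELF3-A was at 3.79 and 4.67 TPM before and at 5.95 and 5.71 TPM after vernalization, ELF3-B at 5.54 and 6.03 TPM before and 8.93 and 9.11 TPM after, and ELF3-D at 5.47 and 5.44 TPM before and 7.10 and 7.83 TPM after. The libraries did not overlap, a pattern of 59.0% of all tested genes in this direction, and the log2 fold changes of 0.39, 0.56 and 0.39 (limma, adjusted p = 0.175 to 0.289) exceeded the median gene by 0.10, 0.28 and 0.10. LUX had its lowest levels in bud. LUX-A was at 0.0503 and 0.103 TPM before and 0.143 and 0.397 TPM after, LUX-B was listed at 0 in 1 bud library and reached 0.263 TPM at most, and LUX-D was at 0.537 and 1.06 TPM before and 0.799 and 1.18 TPM after. Neither LUX-A (0.23 ± 0.21, and 0.16 after median-of-ratios scaling) nor LUX-D (0.15 ± 0.24, and -0.013 after median-of-ratios scaling) could be told apart from no change. For LUX-A, below 1 TPM in every bud library, a fold change of 2 on the scale of TPM + 1 was out of reach. Its vernalized bud libraries lay above both others, as did those of 59.0% of all tested genes. With a pseudocount of 0.1 its log2 fold change was 0.99 (limma, adjusted p = 0.0874).

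In shoot apex again none of the 8 genes was called, against 3.56% of all tested genes (limma; 0 of the 8 had an unadjusted p under 0.05). After median-of-ratios scaling none of the 9 was called and none had an unadjusted p under 0.05 (limma; 3.54% of all genes were called). LUX-D was at 21.0 and 16.1 TPM before and at 14.9 and 12.1 TPM after vernalization. LUX-A was at 3.38 and 2.61 TPM before and at 1.86 and 1.98 TPM after. Both were lower in both vernalized apex libraries than in both others, as were 18.3% of all tested genes. Their log2 fold changes were -0.44 ± 0.21 for LUX-A (limma, adjusted p = 0.492) and -0.43 ± 0.24 for LUX-D (adjusted p = 0.707). After median-of-ratios scaling they were -0.37 and -0.33. LUX-B was at 1.02 and 0.724 TPM before and at 1.24 and 0.589 TPM after, with overlapping groups.

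GI reached its highest levels in the apex, with large differences between replicates. GI-A was at 20.6 and 10.3 TPM before and 15.8 and 9.68 TPM after, GI-B at 19.8 and 9.67 TPM before and 16.5 and 10.03 TPM after, and GI-D at 22.2 and 12.6 TPM before and 18.0 and 12.04 TPM after. ELF3-A was at 4.81 and 2.79 TPM before and 3.55 and 2.78 TPM after, ELF3-B at 8.07 and 3.99 TPM before and 6.60 and 4.70 TPM after, and ELF3-D at 5.59 and 3.67 TPM before and 5.82 and 4.16 TPM after. All groups of GI and ELF3 in apex overlapped. Replicate 1 of the non-vernalized apex was higher than replicate 2 for 8 of the 8 tested genes, by a median of 0.70 on the log2 scale against 0.34 for all tested genes, and after vernalization this held for 7 of 8, by 0.41 against 0.29. The log2 fold changes of GI and ELF3 in apex, -0.22 to 0.10, were smaller than these medians. After median-of-ratios scaling these fold changes ran from -0.12 for GI-A to 0.19 for ELF3-D. The sign of 6 of 6 changed when single libraries were left out, which also leaves the replicates unbalanced. Over all tested genes, the difference between replicates 1 and 2 in apex correlated with that in vernalized apex (r = 0.74). Between libraries of the same number, GI-A, GI-D and ELF3-A were lower and ELF3-D was higher after vernalization in both, while GI-B and ELF3-B were lower in replicate 1 and higher in replicate 2, and no call was made with a replicate block either.

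The response in leaf differed from that in the other tissues for ELF3 and LUX with the deposited TPM. These tests of the difference between responses share the leaf libraries and required an adjusted p under 0.05 with a log2 difference larger than 1. For LUX-D the response was higher in leaf than in bud by 2.46 ± 0.34 (limma, adjusted p = 8.07e-05) and higher than in apex by 3.04 ± 0.34 (adjusted p = 2.34e-05). LUX-A was higher than in apex by 1.61 ± 0.30 (adjusted p = 0.000664), and its difference from bud was 0.93 ± 0.30 (adjusted p = 0.0133), just short of the required size. ELF3-A, ELF3-B and ELF3-D responded lower in leaf than in bud, with differences of -2.24 ± 0.37, -1.99 ± 0.41 and -2.17 ± 0.35 (adjusted p = 0.000232, 0.00109 and 0.0002). Against apex the differences were -1.67 ± 0.37, -1.39 ± 0.41 and -1.87 ± 0.35 (adjusted p = 0.00198, 0.0109 and 0.000679), and that of ELF3-B became -0.96 and was no longer called without replicate 2 of the non-vernalized apex.

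Calls of this kind were common. The response was lower in leaf for 57.0% of all tested genes against bud and for 43.6% against apex, and higher in leaf for 10.2% and 13.8%. Among the 8 tested genes these counts were 3 lower and 1 higher against bud, and 3 lower and 2 higher against apex. Between bud and apex none of the 8 was called (limma; 1 had an unadjusted p under 0.05), where 16.4% of all tested genes were, and none of 9 after median-of-ratios scaling (3 with an unadjusted p under 0.05; 13.6% of all genes called). After median-of-ratios scaling the differences of ELF3, between -0.67 and -0.15, were not called. LUX-A was then higher in leaf by 2.33 than in bud and by 2.85 than in apex, LUX-D by 3.79 and 4.11, and the GI genes by 1.79 to 2.06 than in bud and by 1.02 to 1.32 than in apex. All 5 were called in both comparisons, where 21.9% and 24.2% of all genes were called higher. With the deposited TPM the GI differences lay between -0.26 and 0.44 and none was called (limma, adjusted p = 0.417 to 0.976).

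The balance between ELF3 and LUX was compared within each library, where no scaling enters. The summed TPM of the 3 ELF3 genes was 6.71 and 6.00 times that of the 3 LUX genes in the leaf libraries and 0.384 and 0.404 times in the vernalized leaf libraries. Leaf thus went from an excess of ELF3 transcripts to an excess of LUX transcripts. After median-of-ratios scaling the mean LUX sum rose from 4.06 to 49.3, while the ELF3 sum went from 26.0 to 19.5 with overlapping groups. How common ratio changes of this size were among other genes was not computed. In shoot apex LUX was in excess in all 4 libraries, with ratios of 0.726 and 0.536 before and 0.886 and 0.792 after vernalization. In axillary bud ELF3 was in excess in all 4, at 25.2 and 12.3 before and 19.0 and 12.3 after, where the LUX sum was between 0.587 and 1.84 TPM. The ratios are given as a description. They were not part of the model across genes, and an exact permutation test of 2 against 2 libraries cannot give a p below 0.333.

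**Figure D4:**
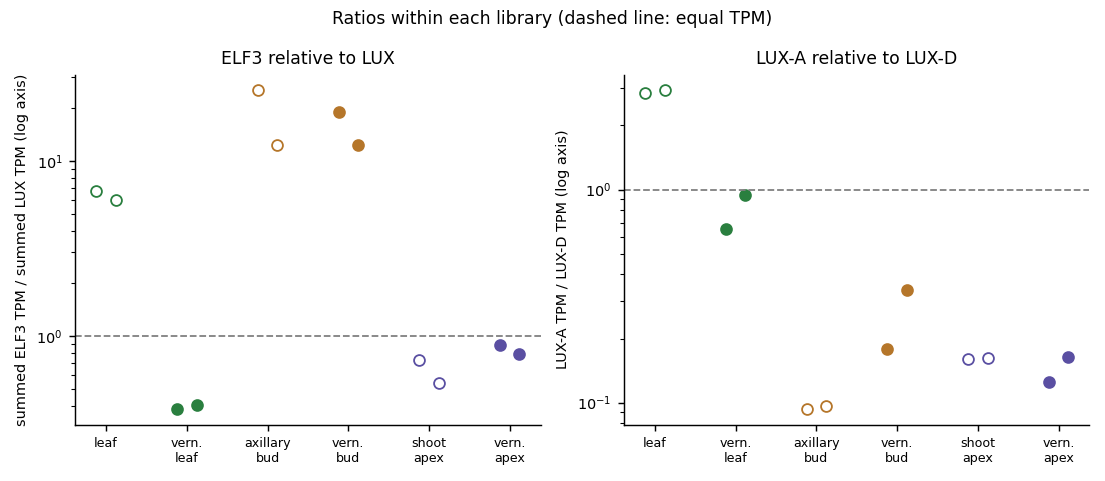
Ratios of TPM within each library on log axes, with the summed ELF3 relative to the summed LUX homoeologues on the left and LUX-A relative to LUX-D on the right. Each point is 1 library, open before and filled after vernalization, and the dashed line marks equal TPM. In leaf both ratios crossed that line, from 6.00 or more to 0.404 or less for ELF3 over LUX and from 2.85 or more to 0.943 or less for LUX-A over LUX-D.

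The homoeologues of LUX were used unequally, and their order differed between tissues. LUX-A held 73.1% of the summed LUX TPM in leaf, the mean of 2 libraries at 72.6% and 73.6%, and LUX-D held 25.3%. In vernalized leaf LUX-A held 42.9%, with libraries at 39.0% and 46.7%, and LUX-D 54.6%. The ratio of LUX-A to LUX-D was 2.85 and 2.92 in leaf and 0.655 and 0.943 in vernalized leaf. In shoot apex LUX-D held 82.8% before and 82.6% after vernalization and the libraries of each group differed by less than 1 percentage point. LUX-D exceeded LUX-A in 10 of 12 libraries, and the 2 exceptions were the leaf libraries before vernalization. LUX-B was below LUX-D in 12 of 12 libraries and had a group mean share of 1.58% to 16.4%, the latter in vernalized bud where the summed level was low.

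ELF3 and GI were far more even. ELF3-A was the lowest of its homoeologues in 12 of 12 libraries, with 22.2% to 29.4% of the summed TPM, and ELF3-B exceeded ELF3-D in 10 of 12. The 2 exceptions were again the leaf libraries before vernalization, where ELF3-D held 37.5% and ELF3-B 33.4% on average. No GI homoeologue led throughout: GI-A exceeded GI-B in 6 of 12 libraries and GI-D in 7 of 12. GI-A held 42.4% in leaf, with libraries at 42.2% and 42.7%, and 35.8% in vernalized leaf, and in the other groups it held 29.7% to 32.8%. How reads that match several homoeologues were counted is not given in the sources used here, so the split within each gene is less certain than its sum.

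**Figure D5:**
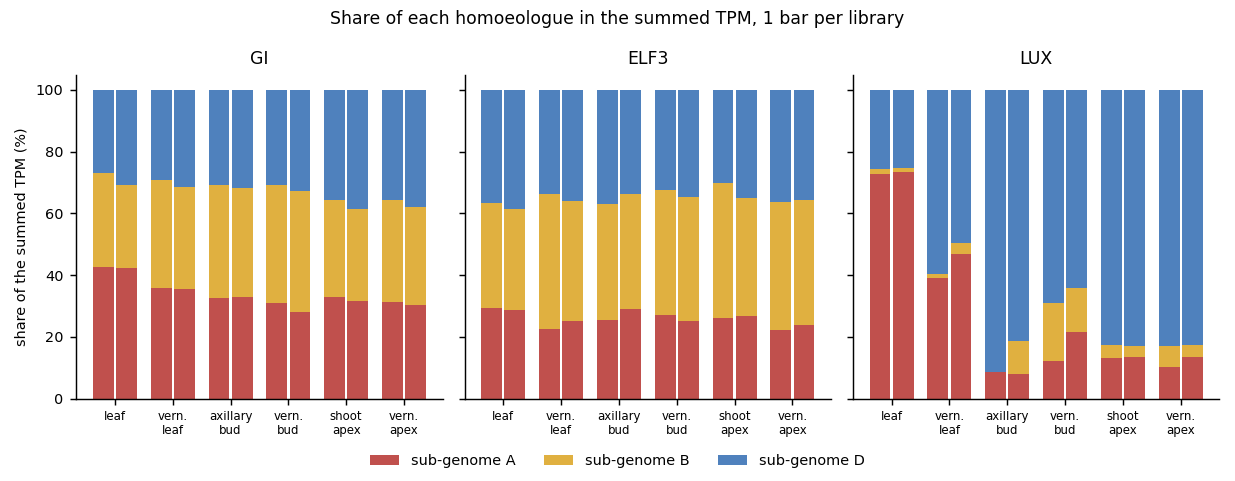
Share of homoeologues A, B and D in the summed TPM of GI, ELF3 and LUX, with 1 bar per library. LUX-A made up 73.1% of LUX in leaf and 42.9% in vernalized leaf on average, and LUX-D made up over 80% in shoot apex, whereas the highest share of a GI or ELF3 homoeologue in any library was 43.7%.

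The 3 genes differed in where they were most expressed. With the deposited TPM, mean summed GI TPM ran from 47.6 ± 21.2 (SD, n = 2) in apex through 41.0 ± 13.1 in vernalized apex, 30.6 ± 9.24 in leaf and 24.8 ± 5.20 in vernalized leaf to 16.9 ± 3.32 in bud and 10.6 ± 0.297 in vernalized bud. Neighbours in this order overlapped down to vernalized leaf, and both bud groups lay apart at the bottom. After median-of-ratios scaling vernalized leaf (42.9 ± 4.14) stood above leaf (18.4 ± 3.97) without overlap and overlapped vernalized apex (45.9 ± 2.84), and leaf overlapped bud (15.7 ± 2.21). With the deposited TPM, mean summed ELF3 TPM was highest in leaf, at 42.3 ± 9.60, followed by vernalized bud at 22.3 ± 0.474, and vernalized leaf was lowest at 11.1 ± 0.439. Bud at 15.5 ± 0.952, apex at 14.5 ± 5.67 and vernalized apex at 13.8 ± 3.07 overlapped in between. The last place of vernalized leaf turned with the scaling: after median-of-ratios scaling it was second at 19.5 ± 2.98, overlapping leaf at 26.0 ± 8.15, and the other groups lay between 14.4 and 16.3. Mean summed LUX TPM was 28.2 ± 0.128 in vernalized leaf, 22.5 ± 4.20 in apex, 16.4 ± 2.36 in vernalized apex and 6.61 ± 0.988 in leaf, with no overlap between neighbours, while vernalized bud at 1.496 ± 0.482 and bud at 0.948 ± 0.511 overlapped. This order of LUX was the same after scaling.

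Before vernalization, bud and apex differed in 5 of the 8 tested genes, all lower in bud, where 8.73% of all tested genes were lower. LUX-D was lower in bud by a log2 difference of -3.45 ± 0.24 (limma, adjusted p = 1.66e-06) and LUX-A by -1.89 ± 0.21 (adjusted p = 4.19e-05). GI-D was lower by -1.51 ± 0.32 (adjusted p = 0.00444), GI-A by -1.27 ± 0.34 and GI-B by -1.08 ± 0.34. The call of GI-A was lost without bud replicate 2 (-1.10) or apex replicate 1 (-0.80), and that of GI-B without bud replicate 1 (-1.27), bud replicate 2 (-0.89) or apex replicate 1 (-0.60). After vernalization the calls between bud and apex were 5 as well, again LUX-D (-2.87), LUX-A (-1.21), GI-D (-1.85), GI-A (-1.69) and GI-B (-1.45), where 2.59% of all tested genes were lower. That of GI-B was lost without vernalized bud replicate 2 (-1.44) or vernalized apex replicate 1 (-1.12). After median-of-ratios scaling the same 5 genes were called in both states, where 10.3% of all genes were lower in bud before vernalization and 5.45% after it.

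Leaf before vernalization was higher than bud in 5 of 8 genes, where 25.7% of all tested genes were higher. The log2 differences were 2.43 ± 0.21 for LUX-A, 1.34 ± 0.26 for ELF3-A, 1.14 ± 0.29 for ELF3-B, 1.37 ± 0.24 for ELF3-D and 1.08 ± 0.34 for GI-A. Of these LUX-A alone was called after median-of-ratios scaling, at 1.88, where 15.4% of all genes were called higher. The call of GI-A was lost when any one of the 4 libraries was left out (0.79 to 1.36), and that of ELF3-B without leaf replicate 1 (0.90) or bud replicate 1 (1.09). Compared with apex, leaf was higher for ELF3-A, ELF3-B and ELF3-D by 1.49, 1.15 and 1.59 and lower for LUX-D by -2.86 ± 0.24, where 29.5% of all tested genes were higher and 19.3% lower in leaf. After median-of-ratios scaling none of the ELF3 differences was called, LUX-D stayed lower at -3.36, and GI-B and GI-D were also called lower in leaf, as were 27.4% of all genes. The call of ELF3-B against apex was lost without leaf replicate 1 (0.91) or apex replicate 2 (0.72).

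Vernalized leaf was higher than vernalized bud for LUX-A by 3.37 ± 0.21, for LUX-D by 3.04 ± 0.24 and for GI-A by 1.24 ± 0.34, where 14.6% of all tested genes were higher. After median-of-ratios scaling 5 genes were called higher in leaf, GI-A, GI-B, GI-D, LUX-A and LUX-D, where 24.8% of all genes were. With the deposited TPM the call of GI-A was lost without vernalized leaf replicate 1 (1.04), vernalized bud replicate 1 (1.32) or vernalized bud replicate 2 (1.17). LUX-A was also higher in vernalized leaf than in vernalized apex, by 2.16 ± 0.21 (limma, adjusted p = 1.91e-06), the only one of the 8 called, where 18.2% of all tested genes were higher. It was also the only call after median-of-ratios scaling, at 2.77, where 25.5% of all genes were higher. LUX-D, which before vernalization was far below its apex level in leaf, was at 16.7 and 14.0 TPM in vernalized leaf. It was at 14.9 and 12.1 TPM in vernalized apex, and the groups overlapped with the deposited TPM. After median-of-ratios scaling LUX-D was higher in vernalized leaf by 0.75 ± 0.19 (limma, adjusted p = 0.00483), short of the fold change of 2.

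Across the 12 libraries the homoeologues of GI and of ELF3 followed each other closely, with Pearson r of log2(TPM + 1) of 0.94 to 0.98 among the GI genes and of 0.96 to 0.98 among the ELF3 genes. Within LUX, r was 0.88 between LUX-B and LUX-D, 0.64 between LUX-A and LUX-D and 0.42 between LUX-A and LUX-B. These values describe 12 libraries from 6 groups that share tissue and library scale. Outside the 9 genes, the one whose pattern was most like the mean of LUX was TraesCS5B02G211000 (r = 0.990 over 12 libraries), which was at 10.5 and 6.63 TPM in leaf, 63.6 and 52.8 TPM in vernalized leaf and 39.8 and 28.05 TPM in apex. It remained the closest gene after median-of-ratios scaling (r = 0.993), and the genes with an r above 0.95 numbered 12 before and 80 after scaling. For ELF3 the closest was TraesCS4D02G243300 (r = 0.993), at 35.1 and 26.7 TPM in leaf and 4.51 and 4.83 TPM in vernalized leaf, but 778 genes had an r above 0.95 with ELF3, and after scaling this gene ranked at 415 and 9 genes did. For GI the closest was TraesCS3B02G379600 (r = 0.902), which ranked at 21 after scaling, and the genes with an r above 0.95 numbered 0 with the deposited TPM and 1 after scaling. None of these identifiers has a name in the sources used here.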

How the data were processed

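RNA-seq of 12 libraries was analysed from the TPM values per gene that the authors deposited. The authors trimmed reads with fastp 0.21.0, aligned them with hisat2 under default settings to IWGSC RefSeq v1.0, sorted alignments with SAMtools 1.3.1 and computed TPM with TPMCalculator. The handling of strand and of multi-mapped reads is not given in the sources used here. TPM keep no depth, so no counting interval could be given. All libraries held the same 107891 identifiers, and no pair was identical. Groups were taken from the sample labels.

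Here, the 60326 genes whose mean exceeded 1 TPM in any of the 6 groups were fitted with limma 3.58.1 in R 4.3.3 on log2(TPM + 1), so fold changes understate those of low genes. The fit had 1 coefficient per group, no replicate term, a trend on mean expression and two-sided tests. Responses and tissue differences were called at an unadjusted p under 0.01 and a fold change above 2. Differences between responses were called at a Benjamini-Hochberg adjusted p under 0.05 with a log2 difference larger than 1. Adjusted p-values cover all tested genes, and p-values measure only the spread between these libraries. The fit was checked on simulated data.

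Alternatives were a pseudocount of 0.1, no filter, a filter of 5 TPM, median-of-ratios scaling (factors of 0.530 to 1.75 from 21695 genes, 59825 genes tested), a replicate block, no trend, the adjusted p, a fit of each tissue alone and leaving out each library. A block within tissue and the scaled order of the summed levels were added after seeing the data. The 9 genes and all lists were chosen with earlier results of these data known. By a rule set with them, all 9 genes are named, and for each of GI, ELF3 and LUX the tested gene with the highest Pearson r to the mean of its homoeologues. Lists of other clock genes and of tissue markers were not used, because 0 of the deposited identifiers matched the reference table at hand. Python 3.11.15 with pandas 2.3.3 made the summaries.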

Additional observations from a re-analysis of the deposited data

Results flagged for a closer look

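The responses of 9 gene and tissue pairs differed between tissues by a test of the difference itself (limma, adjusted p under 0.05 with a log2 difference larger than 1). Between leaf and axillary bud these were ELF3-A (-2.24), ELF3-B (-1.99), ELF3-D (-2.17) and LUX-D (2.46). Between leaf and shoot apex they were ELF3-A (-1.67), ELF3-B (-1.39), ELF3-D (-1.87), LUX-A (1.61) and LUX-D (3.04). Such calls were common among all tested genes. Against bud, 57.0% were called lower and 10.2% higher in leaf, and against apex 43.6% lower and 13.8% higher. After median-of-ratios scaling the differences of LUX were called and larger, and those of ELF3 were not called. Of all genes, 21.9% were then called higher in leaf against bud and 24.2% against apex. The part of library composition in the ELF3 differences was not tested beyond this scaling.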

How the results depend on the processing

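The calls of ELF3-A, ELF3-B, ELF3-D, LUX-A and LUX-D in leaf, and the absence of calls in bud and apex, held under a pseudocount of 0.1, no filter, a filter of 5 TPM, no trend, the adjusted p, a fit of each tissue alone and every library left out. Median-of-ratios scaling ended the leaf calls of ELF3 and turned the leaf response of GI-A to 0.90, GI-B to 1.32 and GI-D to 1.16, that of LUX-D in bud to -0.013 and that of ELF3-B in apex to 0.067. It moved the leaf calls from 2 higher and 3 lower to 5 higher and 0 lower. The calls between leaf and bud went from 5 to 1 before and from 3 to 5 after vernalization. With single libraries left out, leaf responses ran from -0.26 to 0.20 for GI-B and from -0.56 to 0.17 for GI-D, and that of LUX-D in bud from -0.060 to 0.36. In apex they ran from -0.69 to 0.24 for GI-A, -0.58 to 0.38 for GI-B, -0.56 to 0.21 for GI-D, -0.49 to 0.13 for ELF3-A, -0.46 to 0.40 for ELF3-B and -0.15 to 0.34 for ELF3-D. The calls before vernalization ranged from 3 to 5 for each pair of tissues.

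The labels give replicates a number only. Over all tested genes, the differences between replicates 1 and 2 before and after vernalization correlated in apex (r = 0.74) but not in leaf (-0.07) or bud (0.01). With a replicate block the calls were 5 in leaf, 0 in bud and 0 in apex, as without it, and no count changed. A block within tissue gave the same counts. With 2 libraries per group and unknown depth, small changes, and those of LUX in bud, could not be resolved.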
